A study of Homo sapiens with 18 samples.

Results

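GDF15, INHBE, ADM2, STC2 and FGF21 encode secreted proteins whose transcripts are known to rise when cells are stressed. These 5 genes, of 24408 in the count tables, were taken by name as a set of stress-induced secreted factors, with earlier results on the same libraries known, so their levels by group and by library number are given as a description. RNA was sequenced from K562, a human erythroleukaemia line, in 18 libraries that form 6 groups of 3. The tested groups received lentivirus encoding dCas9-KRAB, a nuclease-dead Cas9 fused to the KRAB repressor domain, with the guide RNA (gRNA) CR4 or CR10 aimed at HS2, an enhancer of the beta-globin genes. Their controls received dCas9 without the repressor with CR4 or with CR10, or dCas9-KRAB without a gRNA, and a further group, called untransduced here, received no lentivirus. Transduction used 4 µg/ml polybrene, and 1 µg/ml puromycin was added from 96 hours on to select transduced cells. The labels do not say whether the untransduced cells were given polybrene. All libraries are from the same line, and those of a group carry the numbers 1, 2 and 3; the labels do not say what a shared number stands for beyond transduction in triplicate, so the spread between libraries may be partly technical.

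The integrated stress response links these genes. Kinases that sense amino acid shortage, misfolded protein in the endoplasmic reticulum, double-stranded RNA or haem shortage phosphorylate the initiation factor eIF2, which lowers general translation while the mRNA of the transcription factor ATF4 is translated more. ATF4, with partners such as CHOP (DDIT3) and C/EBP factors, then raises transcription of genes for amino acid uptake and synthesis and of secreted factors, and in erythroid cells the haem-regulated kinase EIF2AK1 is the best known trigger. GDF15, a distant member of the TGF-beta family, acts on the receptor GFRAL with its partner RET in the hindbrain and lowers appetite. INHBE encodes the beta E subunit of activins and inhibins and is best known from liver. ADM2, or intermedin, is a peptide of the calcitonin family that signals through CALCRL with RAMP proteins. STC2 is a glycoprotein that inhibits the protease PAPP-A, and FGF21 is a hormone of fasting liver that signals through FGF receptors with beta-klotho (KLB).

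Promoter sequences are shown because 4 of these genes, GDF15, INHBE, ADM2 and STC2, moved together over the libraries. FGF21, at the limit of detection, was not among those 4 and is shown as the fifth member. The sequences come from RefSeq on GRCh38.p14, whereas the counts were made on hg19, and 4 of the 5 genes matched, all but INHBE. Each line gives the 250 bases before the transcription start, on the strand of the gene, and capitals mark motif matches on either strand.

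GDF15 (chr19:18385908-18386157, plus strand): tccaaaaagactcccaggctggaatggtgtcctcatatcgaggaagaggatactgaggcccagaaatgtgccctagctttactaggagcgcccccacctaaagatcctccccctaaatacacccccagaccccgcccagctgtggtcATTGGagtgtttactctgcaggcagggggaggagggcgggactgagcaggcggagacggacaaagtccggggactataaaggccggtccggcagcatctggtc

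ADM2 (chr22:50481293-50481542, plus strand): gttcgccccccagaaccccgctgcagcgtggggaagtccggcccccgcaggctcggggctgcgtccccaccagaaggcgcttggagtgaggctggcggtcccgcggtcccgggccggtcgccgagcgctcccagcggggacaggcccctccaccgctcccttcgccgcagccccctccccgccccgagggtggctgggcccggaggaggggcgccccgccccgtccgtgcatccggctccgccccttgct

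STC2 (chr5:173328415-173328664, minus strand): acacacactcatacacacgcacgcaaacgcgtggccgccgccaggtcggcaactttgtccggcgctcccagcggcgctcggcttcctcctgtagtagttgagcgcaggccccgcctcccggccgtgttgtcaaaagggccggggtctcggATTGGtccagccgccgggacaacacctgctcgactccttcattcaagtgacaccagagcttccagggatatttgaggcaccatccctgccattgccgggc

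FGF21 (chr19:48755274-48755523, plus strand): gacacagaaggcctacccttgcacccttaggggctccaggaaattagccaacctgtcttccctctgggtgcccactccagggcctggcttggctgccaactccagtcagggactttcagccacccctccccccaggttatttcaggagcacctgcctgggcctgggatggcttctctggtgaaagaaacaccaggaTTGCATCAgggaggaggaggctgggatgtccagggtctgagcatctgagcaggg

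The search covered these bases and the 50 after the start, in the members and in all 35116 promoters of the table, on both strands. The composite element of C/EBP and ATF factors, TGATGNAA, was found in FGF21, on the reverse strand with its first printed base at position -54, and in 3.62% of all promoters. The NF-Y box, CCAAT, was found on the reverse strand of GDF15 at -103 and of STC2 at -100, and in 34.6% of all promoters. Neither the cyclic AMP response element TGACGTCA (1.85% of promoters), the C/EBP site TTGCNNAA (10.5%), the E-box CACGTG (7.26%) nor the ER stress element (0.0769%, CCAAT and CCACG spaced apart, overlapping the NF-Y box) matched in the 4 windows. ADM2 held none of the 6 motifs. Its window had 76.7% G and C, against 59.3% in GDF15, 64% in STC2, 60% in FGF21 and a median of 58.7% over all promoters.

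The libraries held 22805964 to 34032962 counts, and 14720 genes passed the filter on low counts. Of the 5 members 4 passed, and FGF21 did not. The globin gene HBE1, embryonic epsilon-globin, was read as the check of the targeted enhancer. HBE1 read 55.8 to 68.1 CPM (counts-per-million of the library, scaled by the TMM method) in dCas9-KRAB with CR4 and 73.3 to 95.1 CPM in dCas9-KRAB with CR10. It read 329 to 402 CPM in dCas9 with CR4 and 332 to 425 in dCas9 with CR10. The other controls read 437 to 468 in dCas9-KRAB without a gRNA and 547 to 670 in untransduced cells. Erythroid markers were present in every library, with a summed level of the 11 from 2805 to 5372 CPM. The 4 hepatocyte markers, of a cell type known for INHBE and FGF21, were each under 1 CPM in every library, and TTR and SERPINA1 had 0 counts throughout.

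GDF15 was at its highest in the libraries numbered 3 of every lentiviral group. It read 18.8, 22.6 and 98.6 CPM in libraries 1, 2 and 3 of dCas9-KRAB with CR4, and 23.4, 20.9 and 76.0 CPM in those of dCas9-KRAB with CR10. In the dCas9 groups it read 20, 27.9 and 73.8 CPM with CR4, and 21.9, 18.7 and 96.8 CPM with CR10. It read 20.9, 18.2 and 50.2 CPM in dCas9-KRAB without a gRNA, and 30.8, 182 and 80.1 CPM in libraries 1, 2 and 3 of untransduced cells. Libraries 1 and 2 of all 5 lentiviral groups thus lay within a narrow band, libraries 3 lay above it in each group, and untransduced library 2 was the highest of the 18. In bulk RNA, fewer cells with the transcript and less transcript per cell cannot be told apart.

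INHBE varied most, 59.1-fold between its lowest and highest library, on 92 to 6670 counts. In dCas9-KRAB it read 4.06, 5.84 and 41.3 CPM with CR4, and 5.93, 6.28 and 27.1 CPM with CR10, in libraries 1, 2 and 3. With dCas9 the values were 4.68, 5.16 and 22.7 CPM for CR4, and 6.0, 4.99 and 51.2 CPM for CR10. The controls read 4.87, 3.50 and 12.8 CPM in dCas9-KRAB without a gRNA and 13.2, 207 and 66.7 CPM in untransduced cells. Every lentiviral library numbered 3 was above every lentiviral library numbered 1 or 2, and untransduced library 2 again stood highest. All 3 untransduced libraries were above the 10 lentiviral libraries numbered 1 and 2. The same held for GDF15, at 30.8 CPM in untransduced library 1 against at most 27.9 CPM in those 10. The share of all tested genes with that pattern was not counted.

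ADM2 ranged 13-fold, on 46 to 854 counts. dCas9-KRAB libraries 1, 2 and 3 read 2.85, 2.04 and 12.8 CPM with CR4, and 2.96, 2.90 and 9.34 CPM with CR10. The dCas9 libraries read 3.67, 3.07 and 8.81 CPM with CR4, and 3.39, 2.37 and 16.1 CPM with CR10. Without a gRNA the dCas9-KRAB libraries read 3.16, 2.36 and 5.68 CPM, and the untransduced libraries 2.85, 26.5 and 9.91 CPM. As for INHBE, the 5 lentiviral libraries numbered 3 were above the 10 numbered 1 and 2 and untransduced library 2 was highest, but untransduced library 1 lay inside the band of the lentiviral libraries numbered 1 and 2.

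STC2 had the smallest range, 4.44-fold. Its levels were 20, 20.9 and 50.6 CPM in dCas9-KRAB with CR4 and 22.1, 21.9 and 43.8 CPM in dCas9-KRAB with CR10. They were 24.9, 21.4 and 44.8 CPM in dCas9 with CR4 and 28.5, 20.9 and 63.4 CPM in dCas9 with CR10. They were 24.8, 18.3 and 34.4 CPM in dCas9-KRAB without a gRNA, and 22.2, 81.4 and 36.4 CPM in untransduced cells. Untransduced library 1 was again inside the band of the lentiviral libraries numbered 1 and 2, and the 5 libraries numbered 3 were above that band.

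FGF21 was at the limit of detection. It had 0 counts in 8 of the 10 lentiviral libraries numbered 1 and 2, and 2 counts in each of the others, both from dCas9 with CR10. The lentiviral libraries numbered 3 had 6 counts in dCas9-KRAB with CR4, 6 in dCas9-KRAB with CR10, 4 in dCas9 with CR4, 2 in dCas9 with CR10 and 2 in dCas9-KRAB without a gRNA. Untransduced libraries 1, 2 and 3 had 2, 10 and 4 counts. These sum to 20 counts in the 5 libraries numbered 3, against 4 counts in the 10 libraries numbered 1 and 2, and to 16 counts in the 3 untransduced libraries. If counts are independent, a count of 0 allows up to 3 counts, or 0.0927 to 0.128 CPM at these depths, which covers counting error only. Every count in the tables was even, so 2 counts may be a single fragment and this limit may be too low. No fold is given for FGF21.

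**Figure D1:**
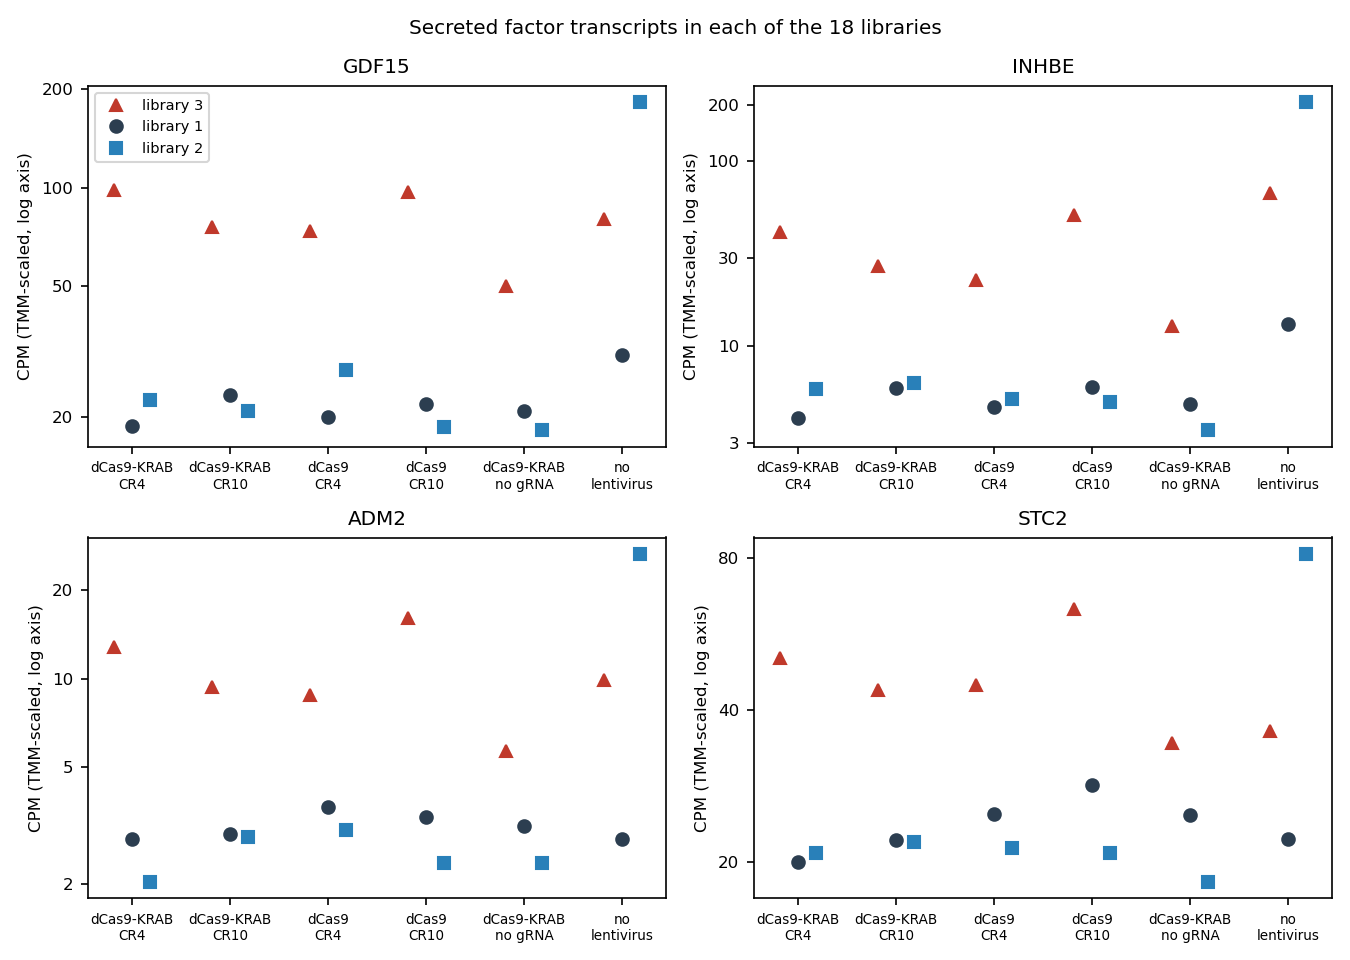
Level of GDF15, INHBE, ADM2 and STC2 in each of the 18 libraries, as TMM-scaled CPM on log axes, by group and with the library number as the symbol. Libraries numbered 3 lay above libraries 1 and 2 in each lentiviral group, and untransduced library 2 was the highest library for each gene, at 182, 207, 26.5 and 81.4 CPM.

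Per kilobase of transcript, which allows genes to be set against each other, the order differed between libraries. Among the lentiviral libraries numbered 3, the median level was 63.3 CPM per kb for GDF15 (range 41.9 to 82.2), 11.2 for INHBE (5.28 to 21.1), 8.37 for STC2 (6.43 to 11.8) and 2.18 for ADM2 (1.33 to 3.77). Among those numbered 1 and 2, it was 17.4 CPM per kb for GDF15 (15.1 to 23.2), 4.04 for STC2 (3.42 to 5.33), 2.09 for INHBE (1.44 to 2.59) and 0.686 for ADM2 (0.476 to 0.858). GDF15 was highest in both sets. INHBE and STC2 overlapped in the libraries numbered 3, whereas INHBE lay below STC2 without overlap in those numbered 1 and 2. In untransduced library 2 INHBE reached 85.1 CPM per kb, GDF15 151, STC2 15.2 and ADM2 6.19. The lengths were those of the transcripts paired with the counted accessions in GENCODE v29, with lengths of 1200 bases for GDF15, 2429 for INHBE, 4276 for ADM2 and 5353 for STC2.

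Within lentiviral groups, library 3 exceeded the mean of libraries 1 and 2 in every group for each of these 4 genes, by differences on the log2(CPM + 0.5) scale. The INHBE difference was 2.96 in dCas9-KRAB with CR4, 2.07 in dCas9-KRAB with CR10, 2.10 in dCas9 with CR4, 3.11 in dCas9 with CR10 and 1.52 in dCas9-KRAB without a gRNA, with a mean of 2.35 ± 0.67 (SD, n = 5 groups), or 5.1-fold. GDF15 differed by 2.23, 1.76, 1.62, 2.23 and 1.34 in the same groups, with a mean of 1.84 ± 0.39, or 3.57-fold. ADM2 differed by 1.65 ± 0.59, or 3.13-fold, and STC2 by 1.05 ± 0.28, or 2.07-fold. dCas9-KRAB without a gRNA had the smallest difference for all 4 genes. dCas9 with CR10 had the largest for INHBE, ADM2 and STC2, and shared the largest for GDF15 with dCas9-KRAB with CR4. Library 2 differed from library 1 by 0.03 ± 0.31 for GDF15, 0.00 ± 0.35 for INHBE, -0.29 ± 0.17 for ADM2 and -0.21 ± 0.23 for STC2 (SD, n = 5 groups).

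The 5 libraries numbered 3 did not overlap the 10 numbered 1 and 2 in any of the 4 genes, where 9.06% of the 14720 tested genes were higher without overlap and 11.6% lower. A mean difference of at least 1 was found in 1.44% of tested genes. Ranked by that mean difference, INHBE was 3 of 14720, GDF15 was 9, ADM2 was 20 and STC2 was 172. These libraries are those the members were picked from, so the ranks describe the choice. Among the libraries numbered 3, dCas9-KRAB without a gRNA was the lowest for all 4 genes, as for 24.4% of tested genes. dCas9 with CR10 was the highest for INHBE, ADM2 and STC2, as for 22.8% of tested genes, and for GDF15 the highest was dCas9-KRAB with CR4.

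**Figure D2:**
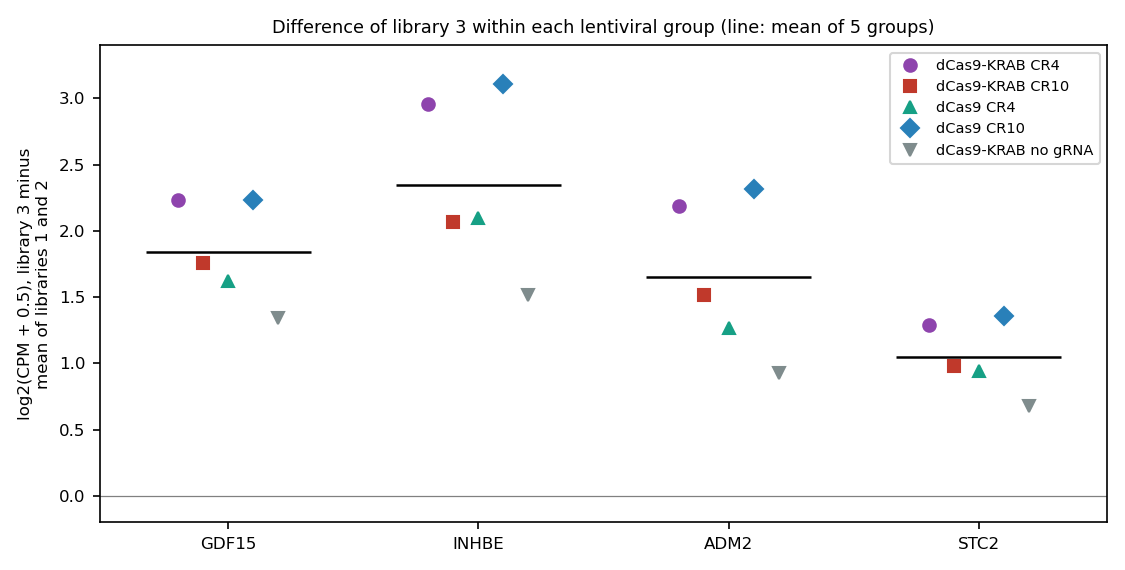
Difference of library 3 from the mean of libraries 1 and 2 of its own group, in log2(CPM + 0.5), for the 4 tested members in the 5 lentiviral groups. Each point is 1 group and each line the mean of 5 groups (2.35 for INHBE, 1.84 for GDF15, 1.65 for ADM2 and 1.05 for STC2); all points lie above 0 and dCas9-KRAB without a gRNA is lowest in each gene.

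Other measures of the libraries numbered 3 were read as well. Their depth was 22805964 to 26179446 counts, against 23430398 to 32364862 in those numbered 1 and 2, with overlap. The 3 monocyte markers summed to 21.6 to 28.4 CPM in the libraries numbered 3, against 11.1 to 17 CPM in those numbered 1 and 2 (26.6, 37.1 and 30.6 in untransduced libraries 1, 2 and 3). Nearly all of this was LYZ, while CD14 and CSF1R were under 1 CPM in every library. The 11 erythroid markers summed to 2805 to 4371 CPM against 3639 to 5303 CPM, also with overlap, and to 5372, 3339 and 4789 CPM in untransduced libraries 1, 2 and 3. Among them are HBE1 and the fetal globin genes HBG1 and HBG2, which were lower in dCas9-KRAB with a gRNA than in the other groups. Summed levels of the 5 lymphoid markers (7.83 to 10.4 against 4.84 to 9.41 CPM), the 3 fibroblast markers (1.54 to 3.1 against 1.04 to 1.76 CPM) and the 4 epithelial markers (851 to 1132 against 762 to 1109 CPM) overlapped between the sets. The part of depth and of these markers in the members' levels was not tested.

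Untransduced libraries differed among themselves as widely. Library 2 exceeded library 1 by 15.7-fold for INHBE, 9.28-fold for ADM2, 5.91-fold for GDF15 and 3.68-fold for STC2, and exceeded library 3 by 3.1-fold, 2.67-fold, 2.27-fold and 2.24-fold. All 4 genes had the order library 2, library 3, library 1, which 31.1% of tested genes had. A difference of at least 2 on the log2 scale between libraries 2 and 1 was found in 1.01% of tested genes, and INHBE, ADM2 and GDF15 were among them. Library 2 lay above all 15 lentiviral libraries in the 4 members and in 27.2% of tested genes.

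**Figure D3:**
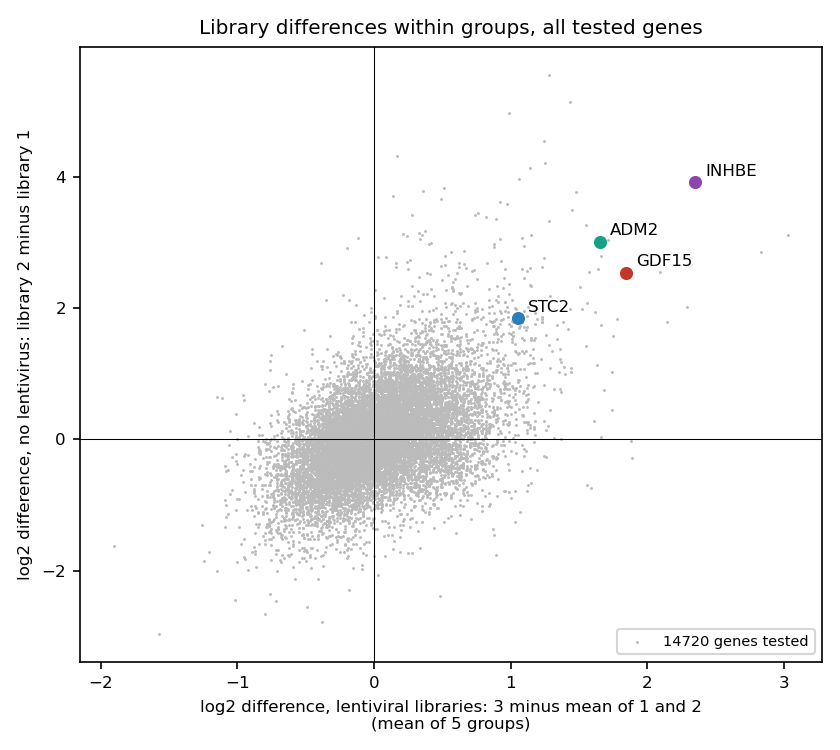
Each point is 1 of 14720 tested genes, with the mean difference of lentiviral libraries numbered 3 from libraries 1 and 2 on the x axis and the difference of untransduced library 2 from library 1 on the y axis, both in log2(CPM + 0.5). The 4 named members lie at the upper right, with x values of 2.35 for INHBE, 1.84 for GDF15, 1.65 for ADM2 and 1.05 for STC2.

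The regulators of the integrated stress response were read from a list chosen with results of these libraries known. Of 12 tested, 4 were higher without overlap in the libraries numbered 3 and none lower, beside 9.06% and 11.6% of all tested genes. The median difference was 0.33, against 0.01 over all tested genes. ATF4 read 385 to 456 CPM (median 405) in the libraries numbered 3, against 253 to 324 CPM (median 271) in those numbered 1 and 2, and 309, 482 and 338 CPM in untransduced libraries 1, 2 and 3. ATF3, a stress-induced transcription factor, read 29.6 to 63.4 CPM (median 41.6) against 12.8 to 18.3 CPM (median 15.1), and 25.2, 128 and 50.7 CPM without lentivirus. DDIT3, which encodes CHOP, read 24.6 to 51.6 CPM (median 33) against 12.2 to 18.3 CPM (median 16.2), and 13.9, 87.4 and 28.8 CPM without lentivirus.

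The fourth was TRIB3, a pseudokinase that restrains ATF4, with 164 to 326 CPM (median 222) in the libraries numbered 3, against 117 to 147 CPM (median 128). The other 8 overlapped, among them the kinases EIF2AK1, EIF2AK2, EIF2AK3 and EIF2AK4, with differences between -0.40 for EIF2AK3 and 0.16 for EIF2AK1. ATF5, also translated under stress, had a difference of 0.03 ± 0.46 (SD, n = 5 groups), yet read 66.5, 460 and 178 CPM in untransduced libraries 1, 2 and 3. All 12 had the untransduced order library 2, library 3, library 1, which 31.1% of all tested genes had.

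Among ATF4 target genes outside the members, 13 of 29 tested were higher without overlap in the libraries numbered 3 and none were lower, beside 9.06% and 11.6% of all tested genes. The untransduced order of the members was found in 26, beside 31.1% of all tested genes. Their median difference was 0.67, and single genes ranged from -0.19 for STBD1 to 2.83 for CHAC1. CHAC1, which degrades glutathione, read 31.0 to 93.9 CPM (median 59.0) in the libraries numbered 3, against 6.97 to 10.5 CPM (median 7.97). ASNS, asparagine synthetase, read 303 to 598 CPM (median 389) against 224 to 290 CPM (median 260), and 299, 1517 and 624 CPM in untransduced libraries 1, 2 and 3. DDIT4, an inhibitor of mTOR signalling, and CTH, of cysteine synthesis, had differences of 2.29 ± 0.49 and 1.55 ± 0.66 (SD, n = 5 groups). The 7 amino acid transporter genes of the list were uneven. SLC7A11, the cystine transporter, was higher without overlap at 94.8 to 204 CPM against 52.1 to 81.7 CPM (difference 0.99), SLC6A9 (0.80) and SLC38A2 (0.48) overlapped, and SLC7A5, SLC3A2, SLC1A5 and SLC7A1 had differences between -0.02 and 0.05.

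Genes of the unfolded protein response of the endoplasmic reticulum gave other counts. Of 18 tested, 2 were higher without overlap in the libraries numbered 3, HERPUD1 and XBP1, a share near the 9.06% of all tested genes, and the median difference was -0.09. HERPUD1, of protein degradation at the endoplasmic reticulum, had a difference of 0.88 ± 0.42, and the chaperone HSPA5 of 0.10 ± 0.16 (SD, n = 5 groups). In untransduced cells 15 of the 18 had the order library 2, library 3, library 1 (31.1% of all tested genes), with HSPA5 at 693, 1642 and 989 CPM in libraries 1, 2 and 3. Of 8 mitochondrial stress genes 1 was lower without overlap, the chaperonin HSPD1 at -0.38 ± 0.10, a share near the 11.6% of all tested genes, none were higher, and 1 had that untransduced order. Of 10 targets of p53, also known to act on GDF15, 2 were higher without overlap, BBC3 and TP53INP1, beside 9.06% of all tested genes, and the median was -0.04; K562 is known to lack working p53. The genes named from these lists, other than ATF4, DDIT3, ATF3, TRIB3, ASNS and CHAC1 and those called in a group comparison, were chosen after their values were seen.

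**Figure D4:**
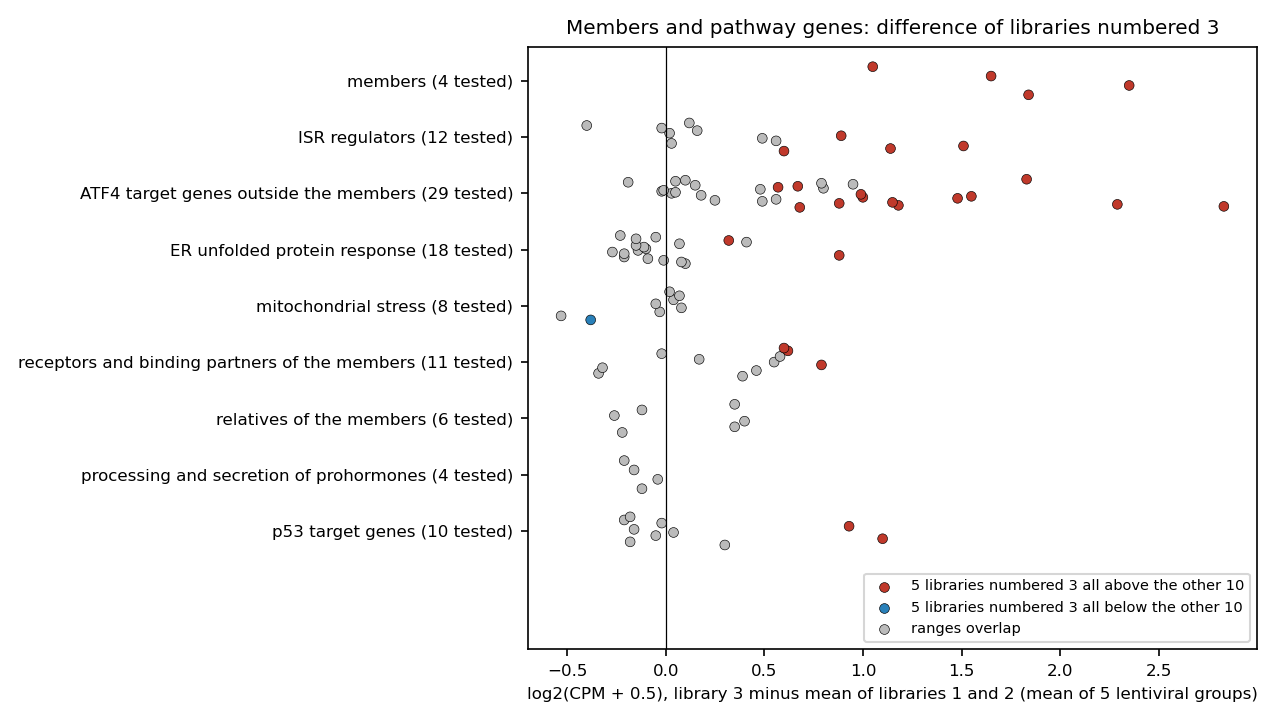
Mean difference of library 3 from libraries 1 and 2 over 5 lentiviral groups, in log2(CPM + 0.5), with 1 point per tested gene, by list. Red points are genes whose 5 libraries numbered 3 all lie above the other 10 lentiviral libraries (4 members, 4 regulators, 13 ATF4 targets), and points of the unfolded protein response centre on a median of -0.09.

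Receptors and binding partners of the factors were mostly scarce. Of 17 listed, 11 were tested; RET, CALCRL, RAMP1, RAMP2, RAMP3 and PAPPA2 did not pass the filter on low counts. GFRAL, the GDF15 receptor, reached at most 0.574 CPM. The activin receptor gene ACVR2B read 99.1 to 158 CPM in the libraries numbered 3, against 59.7 to 89.7 CPM in those numbered 1 and 2, and FGFR4 read 47.7 to 60.4 CPM against 24.5 to 43.6 CPM. PAPPA, whose product STC2 inhibits, was the third gene of the list higher without overlap (3 of 11, beside 9.06% of all tested genes), at a mean of 0.436 CPM over all libraries. KLB, the FGF21 co-receptor, read 1.99 to 3.18 CPM against 1.14 to 2.62 CPM, and the ranges overlapped. Neither the 6 tested relatives of the members, among them INHBC, STC1 and INHA, nor the 4 tested prohormone-processing genes, FURIN, PCSK6, PCSK7 and MBTPS1, held a gene without overlap.

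The genes with the most similar pattern over the 18 libraries were named by the Pearson correlation of log2(CPM + 0.5), among 10402 tested genes with a mean of at least 5 CPM. For GDF15 they were ATF3 (r = 0.984), CHAC1 (0.979), PIM1 (0.979), MYCL (0.977) and CRELD1 (0.976). For INHBE they were AKNA (0.981), ATF3, TRIB3 and MYCL (0.979 each) and ALDH1L2 (0.977). ADM2 had STC2 (0.981), CTH (0.980), SESN2 (0.978), GTPBP2 (0.977) and DDIT3 (0.976), and STC2 had ADM2 (0.981), STX16 (0.977), RCSD1 (0.975), PCMTD1 (0.972) and DDIT3 (0.972). Among the 4 members r was 0.92 to 0.98 over the 18 libraries. All genes of a library share its depth and number, and over the 10 lentiviral libraries numbered 1 and 2 the same pairs had r of 0.14 to 0.73, highest for ADM2 with STC2 and lowest for INHBE with ADM2.

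The first group comparison asks what dCas9-KRAB with a gRNA to HS2 did relative to dCas9-KRAB without one. The edgeR fit over all genes called 0 of the 4 tested members, where it called 0.0204% of tested genes (3 genes). GDF15 averaged 46.7 ± 45 CPM with CR4 and 40.1 ± 31.1 CPM with CR10, against 29.8 ± 17.8 CPM without a gRNA (SD, n = 3 each). Its log2 fold change over both gRNAs was 0.54 (95% interval -0.95 to 2.03). INHBE averaged 17.1 ± 21 and 13.1 ± 12.1 CPM, against 7.06 ± 5.04 CPM (SD, n = 3 each), and its log2 fold change was 1.08 (-1.0 to 3.17). Those of ADM2 and STC2 were 0.55 (-1.04 to 2.14) and 0.21 (-0.72 to 1.14). This fit has no block for the library number, so its intervals include the spread between numbers.

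Within library numbers these differences were uneven. For INHBE they were 0.01, 0.71 and 1.35 in libraries 1, 2 and 3, and for GDF15 they were 0.00, 0.25 and 0.78. For ADM2 they were -0.10, 0.04 and 0.89, and for STC2 -0.23, 0.22 and 0.45. All 4 were largest in libraries 3. In a fit of the 15 lentiviral libraries with the number as a block, the log2 fold change was 0.81 ± 0.23 for INHBE, 0.37 ± 0.14 for GDF15, 0.36 ± 0.22 for ADM2 and 0.16 ± 0.12 for STC2 (SE), with edgeR adjusted p from 0.221 to 0.615. Without the block, leaving out library 3 of dCas9-KRAB with CR4, the log2 fold change was -0.04 for GDF15, -0.08 for ADM2 and -0.07 for STC2. The groups then no longer held the same library numbers, and the library left out was the highest of its group. These values therefore do not separate the gRNA from the library number.

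The second comparison, dCas9-KRAB against dCas9 with the same gRNAs, asks what the repressor domain added. No member was called, where 0.0272% of tested genes were (4 genes, 0.00679% higher and 0.0204% lower). GDF15 averaged 40.6 ± 29 CPM in dCas9 with CR4 and 45.8 ± 44.2 CPM in dCas9 with CR10 (SD, n = 3 each). The log2 fold changes were 0.01 (95% interval -1.18 to 1.19) for GDF15, 0.003 (-1.58 to 1.59) for INHBE, -0.17 (-1.42 to 1.08) for ADM2 and -0.18 (-0.93 to 0.57) for STC2. Within library numbers they ranged from -0.33 to 0.23, with the lowest for STC2 in libraries 1 and the highest for INHBE in libraries 2. These intervals include the spread between library numbers. In a fit of the 15 lentiviral libraries with the number as a block, the values were -0.01 ± 0.11 for GDF15, 0.04 ± 0.17 for INHBE, -0.18 ± 0.17 for ADM2 and -0.16 ± 0.09 for STC2 (SE), and no member was called. Without the block all 4 estimates changed sign when some single libraries were left out, which left the groups with unlike library numbers.

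dCas9 with a gRNA against dCas9-KRAB without one called no member, and 0% of tested genes (unadjusted p under 0.05 in 99 genes, 0 calls by DESeq2). INHBE averaged 10.8 ± 10.2 CPM with CR4 and 20.7 ± 26.4 CPM with CR10 in dCas9, against 7.06 ± 5.04 CPM (SD, n = 3 each), and its log2 fold change was 1.08 (-1.01 to 3.17). This comparison and the first share the dCas9-KRAB libraries without a gRNA, which are the lowest of the libraries numbered 3. Within library numbers 1, 2 and 3 the INHBE difference was 0.11, 0.48 and 1.38, and with the number as a block it was 0.77 ± 0.23 (SE, edgeR adjusted p = 0.973).

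CR4 against CR10, over both proteins, called no member and 0% of tested genes (270 at an unadjusted p under 0.05, and 0 by DESeq2). The log2 fold changes were 0.02 (-1.16 to 1.21) for GDF15, -0.28 (-1.88 to 1.32) for INHBE, -0.14 (-1.39 to 1.11) for ADM2 and -0.12 (-0.87 to 0.62) for STC2. Here too the intervals include the spread between library numbers. The difference between the 2 gRNAs in the effect of the repressor domain also called none (51 genes at an unadjusted p under 0.05, 0 by DESeq2), and was 1.33 (-1.88 to 4.55) for INHBE. Of the list genes 1 had an unadjusted p under 0.05 in that difference. In the 4 comparisons of lentiviral groups above, edgeR and DESeq2 called 0 of the 4 members and 0 of the 98 tested list genes. Without the block no member had an unadjusted p under 0.05 in them, nor did a list gene, except 2 in CR4 against CR10.

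dCas9-KRAB without a gRNA against untransduced cells asks how transduced, selected cells carrying the repressor differ from cells given no virus. The fit called 6.63% of tested genes, 2.87% higher and 3.76% lower, and 0 of the 4 tested members, of which 2 had an unadjusted p under 0.05 and 1 was called by DESeq2. INHBE averaged 7.06 ± 5.04 CPM against 95.5 ± 100 CPM in untransduced cells (SD, n = 3 each), with a log2 fold change of -3.76 (95% interval -6.25 to -1.26; edgeR adjusted p = 0.062, against 0.0164 by DESeq2). GDF15 averaged 29.8 ± 17.8 CPM against 97.5 ± 77 CPM, a log2 fold change of -1.71 (-3.43 to 0.01). ADM2 averaged 3.73 ± 1.74 against 13.1 ± 12.1 CPM (-1.81, interval -3.61 to 0.00), and STC2 25.8 ± 8.09 against 46.7 ± 30.9 CPM (-0.85, interval -1.92 to 0.21).

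These values rest largely on untransduced library 2. Without it the log2 fold change was -2.51 for INHBE, -0.91 for GDF15, -0.78 for ADM2 and -0.19 for STC2. Set side by side by number, INHBE differed by -1.35, -5.70 and -2.33 in libraries 1, 2 and 3, and GDF15 by -0.55, -3.29 and -0.67, all lower in dCas9-KRAB. ADM2 differed by 0.13, -3.24 and -0.75, and STC2 by 0.16, -2.12 and -0.08. The numbers were not taken to pair these 2 groups, so the values only set libraries beside each other. Over all genes the number of calls was 976, against 41 without untransduced library 2, 214 without untransduced library 3 and 2444 without untransduced library 1. It was 27, 202 and 238 without libraries 1, 2 and 3 of dCas9-KRAB without a gRNA.

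**Figure D5:**
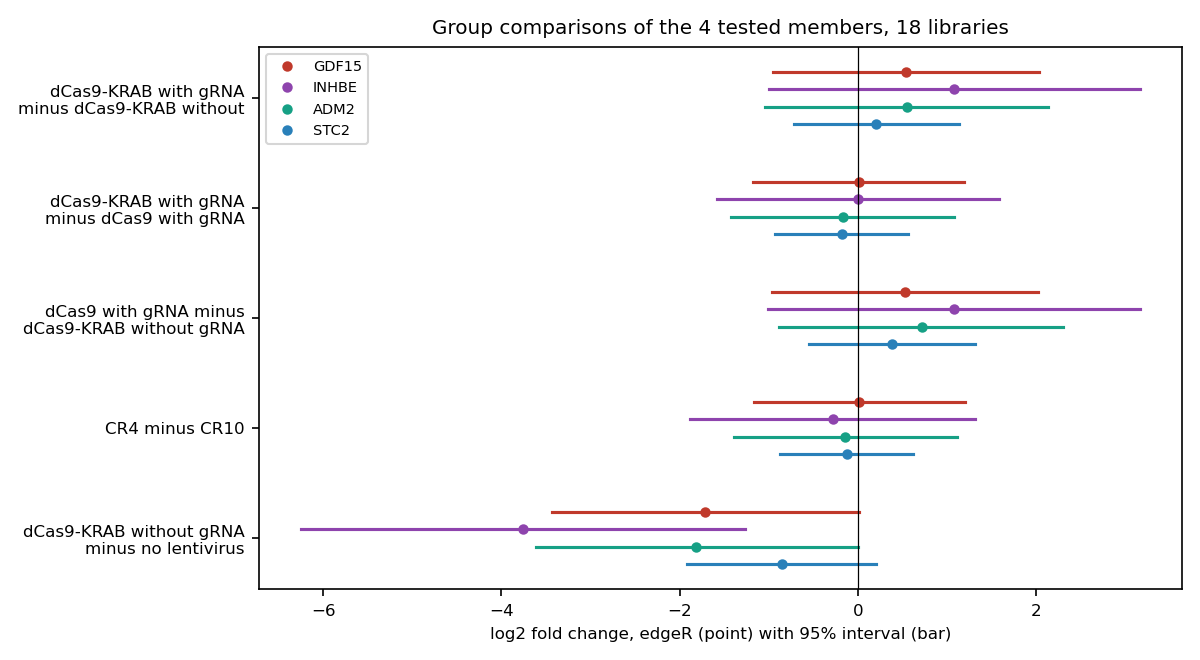
Log2 fold change of GDF15, INHBE, ADM2 and STC2 in 5 group comparisons from the edgeR fit of 18 libraries, with points for estimates and bars for 95% intervals. Estimates for the comparisons between lentiviral groups lie between -0.28 and 1.08 with intervals that include 0, and INHBE lies at -3.76 (-6.25 to -1.26) in dCas9-KRAB without a gRNA against untransduced cells. The fit has no block for the library number, so the intervals include the spread between numbers.

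In the same comparison, of 29 tested ATF4 targets 5 fell and none rose, beside 3.76% of all tested genes lower and 2.87% higher. Their median was -0.92, against 0.01 over all tested genes. They were PHGDH, of serine synthesis (log2 fold change -2.64, edgeR adjusted p = 0.0297), the glycine transporter gene SLC6A9 (-1.82, edgeR adjusted p = 0.0297), the tRNA synthetase genes WARS1 (-1.49) and AARS1 (-1.13), and ALDH1L2, of mitochondrial folate metabolism (-3.13, edgeR adjusted p = 0.0366). ASNS (-1.49, edgeR adjusted p = 0.0547) and CHAC1 (-1.75, edgeR adjusted p = 0.368) did not pass. PHGDH shows the spread: it read 30.2, 30.1 and 50.8 CPM in dCas9-KRAB without a gRNA, against 52.7, 464 and 175 CPM in untransduced cells. All list genes called in this comparison were called in the fit of all 18 libraries. With only the 2 compared groups fitted, 0 of all genes were called.

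Of 12 tested regulators, beside the same 3.76% of all tested genes, 2 fell, ATF5 (-1.58, edgeR adjusted p = 0.0381) and EIF2AK1, the haem-regulated kinase (-0.43, edgeR adjusted p = 0.0389), and none rose. ATF4 (-0.24), DDIT3 (-1.15), ATF3 (-1.70) and TRIB3 (-1.34) did not pass (edgeR adjusted p from 0.0742 to 0.602). Of 18 genes of the unfolded protein response 3 fell, beside 3.76% of all tested genes: SEL1L (-1.44), HYOU1 (-0.76) and HSPA5 (-0.81). Of 11 tested receptors and binding partners 1 fell, the activin receptor gene ACVR1C (-1.57). Of 6 tested relatives of the members 1 rose, TGFB1 (0.59). Of 10 targets of p53 1 rose, BAX (0.64), and 2 fell, CDKN1A (-0.92) and TP53INP1 (-2.07). Beside them, 2.87% of all tested genes were called higher and 3.76% lower. No mitochondrial stress or prohormone-processing gene was called. Without untransduced library 2 none of the 15 list genes was called, beside 41 calls over all genes. Without untransduced library 1 the counts were 7 regulators, 15 ATF4 targets and 9 genes of the unfolded protein response. All genes then gave 2444 calls, against 976 in the full fit. Without untransduced library 3 the list counts were 0, 0 and 1, beside 214 calls over all genes.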

How the data were processed

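RNA-seq counts of 18 K562 libraries were used. The authors deposited raw counts per RefSeq transcript accession, 1 file of 40709 lines per library. Per the labels' protocols, RNA was selected on oligo-dT beads and libraries were made by transposition, which does not mark the strand: GDF15 and INHBE overlap MIR3189 and LOC124902947, from which their reads cannot be told apart. Per the submitters' processing notes, hg19, Bowtie2, DESeq, R 3.1.2, Picard and SAMtools were used, with no roles given; the counting tool is not given in the sources used here. All counts were even (0 odd), so a fragment may count as 2.

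Accessions were named from RefSeq and GENCODE tables (97.87% of accessions, 99.02% of counts) and summed to 24408 genes. Each member had 1 accession. Genes kept by filterByExpr (14720, with 99.97% of counts) were TMM-scaled and fitted with edgeR 4.0.16 (quasi-likelihood, R 4.3.3), 6 group means, Benjamini-Hochberg threshold 0.05; the biological coefficient of variation was 21.6%. The code was tested on simulated data. CPM are TMM-scaled. No molecular identifiers were used, so depth gives counting error only.

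The members and lists were chosen with earlier results of these data known; p-values of members describe the fit. Named genes were the members, HBE1, 6 stress genes (ATF4, DDIT3, ATF3, TRIB3, ASNS and CHAC1), up to 4 called genes per list by smallest p, and the 5 most correlated genes per member; others are marked in the text. Deviations of same-numbered libraries from their group means correlated at 0.16 to 0.86 in all 30 lentiviral pairs. Those of different numbers correlated at -0.73 to 0.58, with 18 of 60 pairs above 0.1. The numbers were taken to pair the lentiviral libraries, though these ranges overlap. Same-numbered libraries of dCas9-KRAB without a gRNA and of untransduced cells correlated at -0.35 to 0.16 (3 pairs) and were not taken as paired. Alternatives were DESeq2 1.42.0, other scaling, filters, pseudocounts and halved counts, the replicate number as a block, lentiviral libraries numbered 3 left out, and each library left out.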

Additional observations from a re-analysis of the deposited data

Results flagged for a closer look

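STC2 in the 5 lentiviral libraries numbered 2 was the 1 set of 12 tested in which a library stood far from the rest. dCas9-KRAB without a gRNA had 18.3 CPM, and its gap to the next library was 0.721 of the whole range. That range was narrow, with a median of 20.9 CPM and a highest value of 21.9 CPM. Chance gives such a value in about 1 in 20 sets, so 1 among 12 sets is within what chance gives.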

How the results depend on the processing

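The excess of libraries numbered 3 kept its direction in every alternative run on it (pseudocounts of 0.1 and 2, other scalings, each lentiviral group left out): 1.74 to 1.96 for GDF15, 2.09 to 2.56 for INHBE, 1.31 to 1.82 for ADM2 and 0.97 to 1.14 for STC2. In dCas9-KRAB without a gRNA against untransduced cells, 0 members were called, against 1 with DESeq2, 1 with no filter on low counts (INHBE, edgeR adjusted p = 0.0453), 3 with the replicate block on all 18 libraries, 3 with lentiviral libraries numbered 3 left out, and 0 to 1 with single libraries left out. With that block INHBE was -4.02 (edgeR adjusted p = 0.00617), GDF15 -1.91 (0.0178) and ADM2 -1.97 (0.0437). The library numbers were not taken to pair libraries with the untransduced ones. With lentiviral libraries numbered 3 left out, INHBE, GDF15 and ADM2 were -4.55, -2.35 and -2.28. Over all genes this comparison gave 976 calls, against 1974 with DESeq2, 2619 with the block, 1616 without the lentiviral libraries numbered 3, 0 with only the compared groups fitted, and 27 to 2444 with single libraries left out. In the lentiviral comparisons the replicate block changed no call of a member: for INHBE in dCas9-KRAB with a gRNA against without, it gave 0.81 ± 0.23 (SE, edgeR adjusted p = 0.221). Over all genes that comparison gave 3 calls, 5 with DESeq2 and 8 with the block on lentiviral libraries, and dCas9-KRAB against dCas9 gave 4, 7 and 14. Signs of some values turned, for causes that were not tested. With a library of a compared group left out, the groups no longer held the same library numbers, and those fits had no block. For dCas9-KRAB with a gRNA against without, leaving out lentiviral libraries numbered 3, ADM2 was -0.03 and STC2 -0.01; with single libraries left out GDF15 ran from -0.04 to 1.16, ADM2 from -0.08 to 1.00 and STC2 from -0.07 to 0.48. In dCas9-KRAB against dCas9, GDF15 was -0.01 by library totals and with either block and -0.03 without the lentiviral libraries numbered 3, and INHBE -0.01 by library totals and -0.0003 with a mean of at least 50 counts; with single libraries left out GDF15 ran from -0.59 to 0.60, INHBE from -0.90 to 0.96, ADM2 from -0.81 to 0.51 and STC2 from -0.47 to 0.13. In dCas9 with a gRNA against dCas9-KRAB without, GDF15 ran from -0.05 to 1.16. In CR4 against CR10, GDF15 was -0.004 by library totals, and the ranges were -0.57 to 0.61 for GDF15, -1.18 to 0.68 for INHBE, -0.78 to 0.53 for ADM2 and -0.42 to 0.18 for STC2. List genes called against untransduced cells were 15 by edgeR and 26 by DESeq2. The list counts without the lentiviral libraries numbered 3, chosen after seeing the data like those without single untransduced libraries, were 4 regulators, 15 ATF4 targets and 1 gene of the unfolded protein response. That setting gave 1616 calls over all genes, against 976 in the main fit. At its depth FGF21 could not be compared.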
